A study of Mus musculus with 6 samples.

Results

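The nuclear genes for the oxidative phosphorylation machinery were followed through 6 arrays of mouse cells: fibroblasts, fibroblasts treated to become neurons, and primary neurons. A gene was a member if its current symbol began with Nduf, Uqcr, Atp5 or Cox4 to Cox8, or was Sdha, Sdhb, Sdhc, Sdhd or Cycs. The symbol came from the RefSeq accession printed on the array. This rule found 94 members among the 20659 genes with a named probe. They were 36 subunits of complex I, 8 complex I assembly factors (Ndufaf), 4 subunits of complex II, 8 of complex III, 20 of complex IV with Ndufa4 and Ndufa4l2, 17 of complex V, and cytochrome c (Cycs). Of the 97 protein-coding genes that the rule takes from the RefSeq table, 3 (Ndufb1, Ndufb4b and Ndufb4c) had no named probe. For each member the brightest probe was used. Of the members, 69 had 1 probe and 25 had several. On all 6 arrays 91 members were well above background, Cox8b and Cox7b2 on some of them, and Cox8c on none.

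Complexes I and II pass electrons from NADH and from succinate to coenzyme Q, complex III passes them on to cytochrome c, and complex IV to oxygen. Complexes I, III and IV pump protons across the inner mitochondrial membrane, and complex V, the ATP synthase, uses the proton gradient to make ATP. Most of these subunits are widely expressed genes, while some subunits of complex IV also exist as forms that are restricted to tissues such as heart, skeletal muscle and testis. Fibroblasts and neurons differ in how far they rely on glycolysis or respiration, neurons being known for their dependence on respiration.

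Each group was a single Agilent single-colour array, labelled with Cy3. The starting cells were embryonic fibroblasts (MEF) prepared from ICR embryos at E13.5, cultures that can hold several mesenchymal and other cell types. Treated MEF were exposed to adenoviral supernatants with polybrene on 2 successive days, kept in a low-glucose intermediate medium, and moved by part changes of medium on day 3 and day 5 after the second infection to a neuronal medium with forskolin. The labels call these cells neurons induced by Tet3 and give them as 1, 3, 5 and 7 dpi. Primary embryonic neurons, also labelled E13.5, were the last group. No group had received a virus without Tet3, and the later arrays also differ from MEF in medium. With 1 array a group no test between groups could be made, so that the differences given are those of 1 array to another.

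Values are log2 levels relative to the 75th percentile of the array, so that a level of 0 is that percentile. Levels of different genes are not compared, since probes differ in brightness. A difference counted as past the threshold when it was at least 2-fold. Where an array was not well above background for a probe, the fold is a lower bound and is written as at least. The scanner software's error model gave a median error of 0.20 on the log2 scale for a member's difference, which covers the array and not the culture. MEF and 1 dpi were read in scan 1 and the other 4 arrays in scan 2, so scan and time cannot be told apart when 3, 5 or 7 dpi or neurons are set against MEF.

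Tet3, the factor named in the labels, was checked first. Its brightest probe was at a log2 level of -0.22 in MEF, 1.13 at 1 dpi, 1.74 at 3 dpi, 2.57 at 5 dpi, 0.07 at 7 dpi and -0.72 in neurons. A second probe was well above background at 1, 3 and 5 dpi (-1.99, -1.13 and 0.26) and not on the 7 dpi, neuron or MEF arrays, while the last lay between -3.64 and -2.27 throughout. The label was thus borne out by Tet3 on the arrays of 1, 3 and 5 dpi and not on that of 7 dpi, so that this sample is called the array labelled 7 dpi, and 7 dpi in a list of times stands for this label alone. Marker lists bore out the other labels in part. On the neuron array 17 of 18 neuron markers were at least 2-fold above MEF, and 17 of 18 fibroblast markers were lower, but 14 of 17 markers of glia and neural progenitors were also higher on the neuron array. Of the neuron markers 16 were past that threshold on the array labelled 7 dpi, and the summed linear level of the fibroblast markers was 832.61, against 690.84 in MEF. The summed level of 14 macrophage markers was 369 in MEF, 67.2, 23.8, 4.34 and 2.8 on the Tet3 arrays and 4.08 in neurons. The part of these changes in the mix of cells in the results below was not tested, and in such bulk samples fewer cells of a type cannot be told apart from less RNA per cell.

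The oxidative phosphorylation genes differed less between arrays than most genes did. At 1 dpi 3 of 92 members with a value were at least 2-fold higher than in MEF and 0 were lower, where 11.2% of all genes were past the threshold in either direction (5.31% higher and 5.9% lower). At 3 dpi 3 of 93 members were higher and 0 lower, beside 25.9% of all genes (16.2% higher and 9.75% lower). At 5 dpi 4 of 92 were higher and 1 lower, beside 26.1% (17.9% higher and 8.19% lower). By the same threshold 4 of 92 were above MEF and 0 below it on the array labelled 7 dpi, beside 23.7% (16.9% higher and 6.78% lower). The members past the threshold were therefore fewer, as a share, than among all genes in each of these comparisons. This was not particular to them. A list of 95 genes was taken by the symbols of cytosolic ribosomal proteins, which let in some Rps6k kinases. Of these 1, 2, 2 and 1 were at least 2-fold higher than MEF at 1, 3, 5 and 7 dpi, and 2 lower each time. In neurons 57 of the 95 were lower and 3 higher. In neurons 6 of 93 members stood at least 2-fold above MEF and 3 below it, while 46.3% of all genes were past the threshold (30.1% higher and 16.1% lower). Between the array labelled 7 dpi and neurons 5 of 93 members were higher at 7 dpi and 1 lower, beside 33% of all genes (13.8% higher and 19.2% lower).

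**Figure D1:**
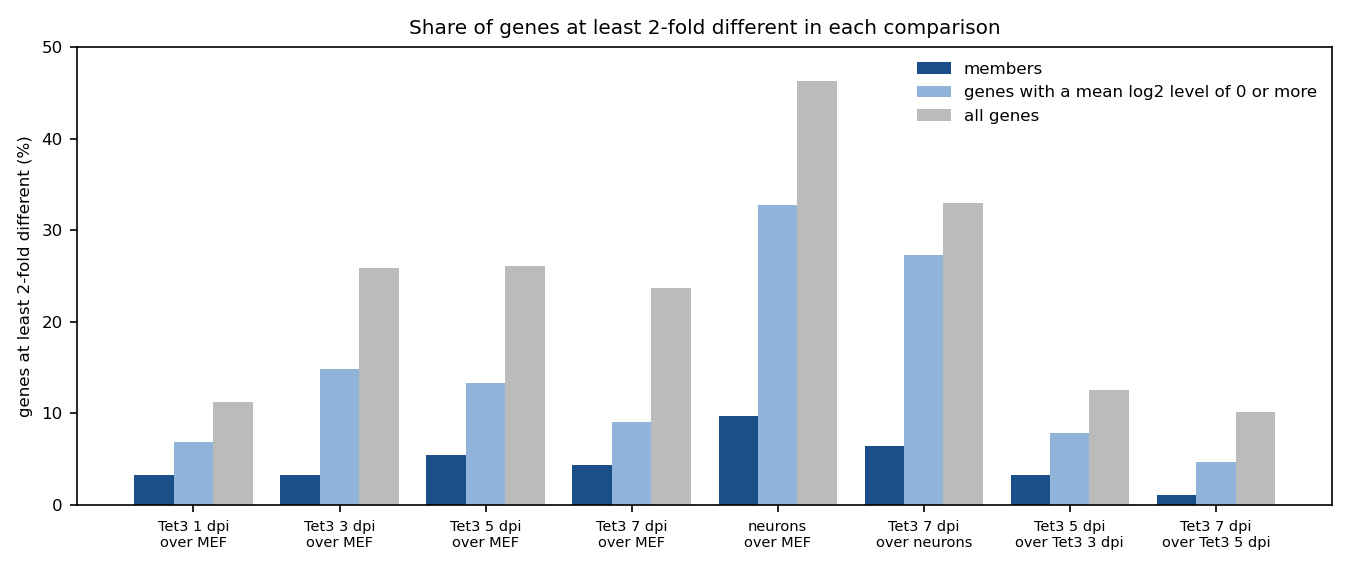
Share of genes (y axis, %) at least 2-fold different in either direction in each of 8 comparisons (x axis), for the members, for genes with a mean log2 level of 0 or more, and for all genes. The members' bars lie between 1.09% and 9.68%, below both other bars in each comparison.

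Most members are bright, and bright probes vary less, so the same was read over the 6494 genes with a mean log2 level of 0 or more, which held 81 members. At 1 dpi 1 of these 81 members was at least 2-fold higher than in MEF and 0 lower, beside 6.85% of the brighter genes (3.05% higher and 3.8% lower). At 3 dpi 0 members were past the threshold, beside 14.8% (6.27% higher and 8.48% lower). At 5 dpi 1 was higher and 0 lower, beside 13.3% (5.79% and 7.47%), and on the array labelled 7 dpi likewise 1 and 0, beside 9.02% (3.77% and 5.25%). The 1 member was Cox6b2 each time. In neurons 1 was higher than in MEF (Cox6b2) and 1 lower (Cox7a2l), beside 32.7% of the brighter genes (7.62% higher and 25.1% lower). Against neurons 0 of the 81 were past the threshold on the array labelled 7 dpi, beside 27.3% (20.6% higher and 6.64% lower). The range over the 6 arrays gave the same picture without a threshold at 2-fold. The highest and lowest levels lay under 1 log2 unit apart for 80 of the 91 members (87.9%) that were well above background throughout, for 37.3% of all such genes and for 48.6% of the brighter ones. The median range was 0.48 for the members, 1.25 for all genes and 1.02 for the brighter genes.

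Setting aside the 8 assembly factors and 8 tissue-restricted forms (Cox4i2, Cox6a2, Cox6b2, Cox7a1, Cox7b2, Cox8b, Cox8c and Ndufa4l2) left 78 members, and took out 11 of the 13 members with a mean log2 level below 0. None of these 78 was 2-fold from MEF on any Tet3 array with the scaling used, with normexp background correction or after quantile normalization. With arrays centred on their medians 3 were (Uqcrh at 3 dpi, Ndufb7 and Sdhd at 5 dpi, and Ndufb7 again at 7 dpi), each lower than in MEF. The genes set aside include every member past 2-fold on a Tet3 array with the scaling used. They were chosen with earlier results of these data known, so the absence of calls among the 78 was in part fixed by that choice. Among all genes tested, 39.1% were 2-fold from MEF on at least 1 Tet3 array, and 21.6% of the brighter genes. The 6 members that were (6.45% of 93) were Cox8b, Ndufa4l2 and Cox6b2 of complex IV and the assembly factors Ndufaf5, Ndufaf6 and Ndufaf8. All but Ndufaf5 had 1 probe each, so no second probe checks their differences. The second probe of Ndufaf5 was well above background on 1 array only.

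How the arrays are scaled sets the sign of a small shift shared by all members. Over the members the median difference from MEF was 0.13, 0.01, -0.05 and -0.01 on the Tet3 arrays and -0.14 in neurons, while that of all genes was 0.06, 0.19, 0.20, 0.16 and 0.25. In neurons the members' median was 0.34 after quantile normalization and -0.94 after median centring, where all genes stood at 0.00 and -0.54. With median centring 41 members were at least 2-fold lower in neurons than in MEF, against 3 with the scaling used. Among all genes 6845 of 18767 were lower with median centring and 3026 with the scaling used. No direction is therefore given for the family as a whole in neurons. Median centring moves every difference by the same amount, so it cannot alter the spread among the members. Their interquartile range in neurons over MEF was 0.48 with the scaling used, 0.49 with normexp and 0.52 after quantile normalization. That of all genes was 1.81, 1.38 and 1.38 in the same order.

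**Figure D2:**
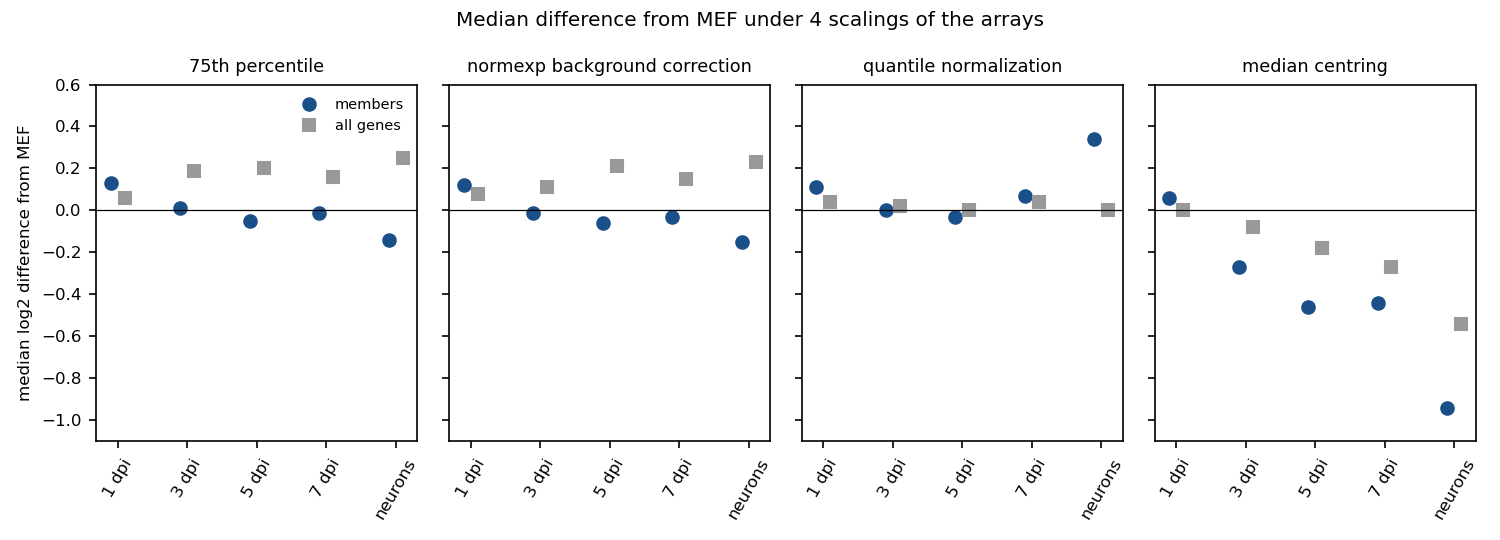
Median log2 difference from MEF (y axis) on each Tet3 array and in neurons (x axis), for the members and for all genes, under 4 scalings of the arrays. The members' median in neurons lies at -0.14, -0.15, 0.34 and -0.94, on either side of 0, while at 1 dpi it lies between 0.06 and 0.13.

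Complex I, the largest of the complexes, held 36 members with a median difference from MEF of 0.17, 0.05, 0.00 and 0.05 on the Tet3 arrays and -0.10 in neurons. Ndufs1, the large iron-sulfur subunit of the core, was at a log2 level of 2.31 in MEF, 2.54, 2.60, 2.41 and 2.30 on the Tet3 arrays and 2.31 in neurons. Ndufv1, which binds NADH and the flavin, ran from 3.39 in neurons and 3.42 in MEF to 3.74 at 1 dpi. Both were nearly level, with ranges of 0.3 and 0.35. Ndufs3, another core subunit, ranged over 0.29, and Ndufs7 and Ndufv2 over 0.48 each. Ndufs8, a core iron-sulfur subunit, had a range of 0.70, with its lowest level in neurons (-0.19).

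Among the other complex I subunits, Ndufs4, Ndufs6 and Ndufv3, accessory subunits, had ranges of 0.37, 0.33 and 0.69. Ndufc1 was the flattest of the complex, between 2.82 in MEF and 3.02 at 1 dpi. Ndufab1, the mitochondrial acyl carrier protein that is also a subunit of complex I, had the largest range (1.98), on its 1 probe. It was at -1.55 in MEF, -1.22, -0.63, -1.3 and -1.46 on the Tet3 arrays and -2.62 in neurons. The neuron array stood below the other 5, 2.1-fold lower than MEF, which was 1.07 log2 units and 0.95 after normexp background correction. Ndufa10 and Ndufa11, membrane-associated accessory subunits, were 0.62 and 0.59 log2 units higher than MEF at 1 dpi, and Ndufa11 was 0.72 higher in neurons. Ndufb4 lay furthest below MEF at 1 dpi, at 3.6 against 4.2 in MEF, but its second probe read 3.92 at 1 dpi and 3.70 in MEF, the opposite direction. Ndufb7 was at 2.49 at 5 dpi and 2.50 on the array labelled 7 dpi, against 3.10 in MEF.

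**Figure D3:**
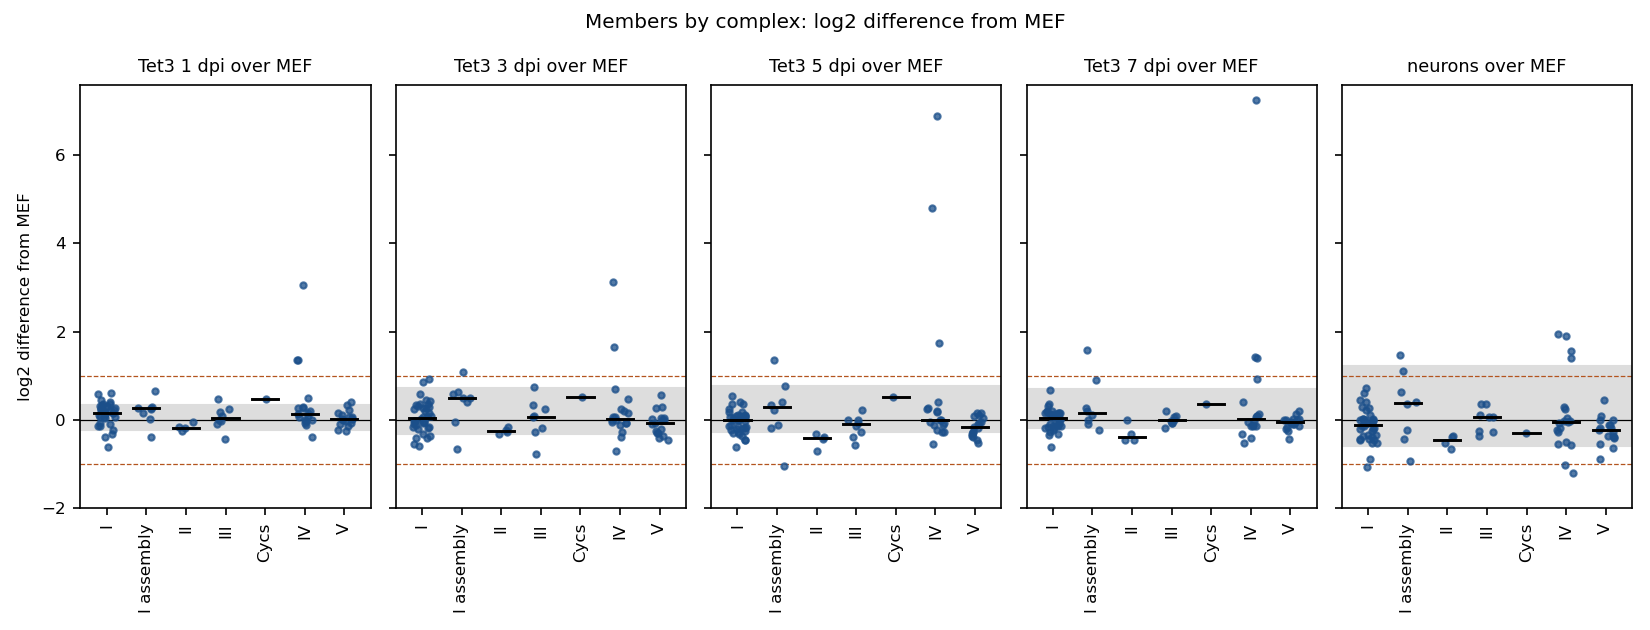
log2 difference from MEF (y axis) of each member on the 4 Tet3 arrays and in neurons, with members grouped by complex (x axis). Points are members with a measured difference or a bound, black bars their medians, the grey band the interquartile range of all genes and the dashed lines 2-fold. The points outside the dashed lines on the Tet3 arrays are subunits of complex IV and assembly factors of complex I.

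The 8 assembly factors of complex I build the complex and are not part of it. Their median range over the 6 arrays was 0.99, against 0.46 for the complex I subunits and 1.25 for all genes. Of the 8 factors 3 (37.5%) were at least 2-fold from MEF on a Tet3 array, near the 39.1% of all genes, and 5 of the 8 factors had a mean log2 level below 0, as 2 of the 36 subunits did. Ndufaf5, which hydroxylates the core subunit Ndufs7, was at -2.78 in MEF, -2.12, -1.69, -1.42 and -1.87 on the Tet3 arrays and -1.3 in neurons. All the treated arrays and neurons lay above MEF, by 2.13-fold at 3 dpi, 2.58-fold at 5 dpi and 2.79-fold in neurons, and of these the call at 3 dpi was kept under no other scaling, that at 5 dpi under 2 of 3 and that in neurons under 1 of 3. Ndufaf6 was at -0.60 in MEF, -0.34, -0.02 and 0.17 at 1, 3 and 5 dpi, 0.99 on the array labelled 7 dpi and -0.25 in neurons. It stood highest on the array labelled 7 dpi, 3.0-fold above MEF and 2.35-fold above neurons, and both differences were past 2-fold under each of the 4 scalings. Ndufaf8, which works with Ndufaf5, was the 1 member at least 2-fold lower than MEF on a Tet3 array (2.04-fold at 5 dpi, -0.71 against 0.32), a value at the threshold that normexp (-0.96) and quantile normalization (-0.99) put just within it. Ndufaf3 was 2.17-fold higher in neurons (-0.39 against -1.51 in MEF), and 2-fold under 2 of 4 scalings. Ndufaf1, an early factor of membrane arm assembly, ranged over 0.26.

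Complex II, succinate dehydrogenase, is shared with the citric acid cycle. Its 4 subunits lay below MEF on every other array with the scaling used. Sdha, the flavoprotein, was at 2.79 in MEF, 2.64, 2.51, 2.36 and 2.47 at 1, 3, 5 and 7 dpi and 2.43 in neurons. Sdhd, a membrane anchor, was at 2.66 in MEF, 2.41, 2.44, 1.97 and 2.21 on the Tet3 arrays and 2.13 in neurons. The median difference of the 4 was -0.17, -0.25, -0.41 and -0.39 on the Tet3 arrays and -0.46 in neurons. After quantile normalization the 4 were still below MEF at 1, 3 and 5 dpi (medians of -0.17, -0.21 and -0.39), while 1 was above it at 7 dpi and 2 in neurons. For Sdhb, the iron-sulfur subunit, a second probe went the other way: the brightest read 4.44 in MEF, 4.25, 4.12, 4.05 and 3.98 on the Tet3 arrays and 3.78 in neurons, and the second 2.08, 2.39, 2.59, 2.42, 2.09 and 2.80 in the same order. Sdhc, the other anchor, was between 3.35 and 3.71 on the other arrays, against 3.72 in MEF, but its second probe was above MEF (0.94) at 1, 3 and 7 dpi (1.14, 1.26 and 1.06). The direction for Sdhb and for Sdhc is therefore not settled by these arrays, which leaves Sdha and Sdhd, with 1 probe each.

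Complex III held 8 members, each with a range under 0.8. Uqcrfs1, the Rieske iron-sulfur protein, was among the flattest of all members, at 3.21 in MEF, 3.18, 3.31, 3.14 and 3.22 on the Tet3 arrays and 3.33 in neurons. Uqcrc1, a core protein, stood at 3.33 at 3 dpi and between 2.59 and 2.84 on the other arrays, while Uqcrc2, the other core protein, ranged over 0.44. Uqcrh, the hinge protein next to the cytochrome c site, was at 4.41 in MEF, 3.98, 3.65, 3.84 and 4.24 on the Tet3 arrays and 4.06 in neurons, lowest at 3 dpi. Its second probe followed it, with differences from MEF of -0.35, -0.67, -0.44 and -0.13 at 1, 3, 5 and 7 dpi. Uqcrq and Uqcrb, small structural subunits, ranged over 0.70 and 0.34. Cycs, the electron carrier between complexes III and IV, was at 3.23 in MEF, 3.71, 3.76, 3.76 and 3.59 on the Tet3 arrays and 2.95 in neurons. A second Cycs probe also lay above MEF on the 4 Tet3 arrays (by 0.44 to 0.58) but read 2.27 in neurons against 1.36 in MEF, so the probes differ in direction for neurons.

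**Figure D4:**
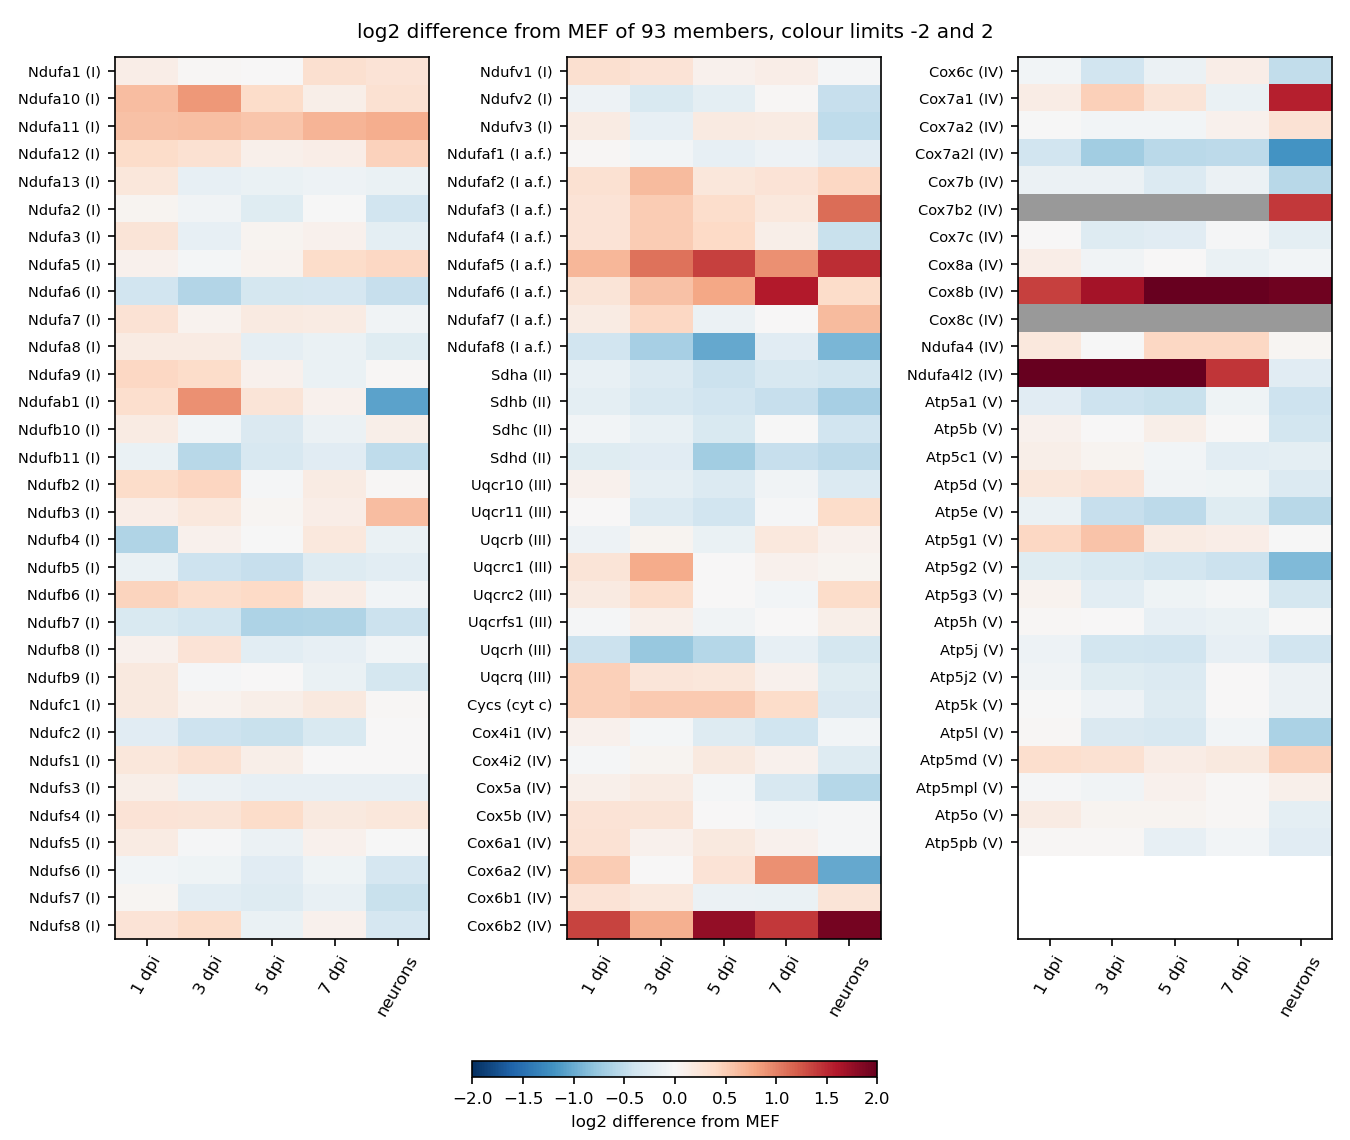
log2 difference from MEF of 93 members (rows, by complex) at 1, 3, 5 and 7 dpi and in neurons (columns). Colours end at -2 and 2, and grey marks members with no fold because neither array was well above background or a bound was not past 0. Cox8b, Ndufa4l2 and Cox6b2 stand out on the Tet3 arrays, and the remaining subunits are pale.

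The complex IV members past the threshold on the Tet3 arrays were 3 of the 7 tissue-restricted forms with a value (42.9%), a share near the 39.1% of all genes. Its 12 widely expressed subunits stayed within 2-fold of MEF on the Tet3 arrays, with medians of 0.09, -0.05, -0.08 and -0.08 at 1, 3, 5 and 7 dpi. Cox4i1, the regulatory subunit in most tissues, was at 4.28 in MEF, 4.35, 4.23, 4.01 and 3.87 on the Tet3 arrays and 4.21 in neurons. Cox5a, which joins it, was at 4.05 in MEF, 3.73 on the array labelled 7 dpi and 3.48 in neurons, and Cox5b ranged over 0.32. Cox6a1, Cox6b1, Cox7a2, Cox7c and Cox8a ranged between 0.26 and 0.40, Cox6c over 0.63 and Cox7b over 0.55. The exception was Cox7a2l, a relative of Cox7a2 that joins complexes III and IV in supercomplexes. It was at 5.12 in MEF, 4.73, 4.44, 4.58 and 4.60 on the Tet3 arrays and 3.93 in neurons. The neuron array was lowest, 2.29-fold below MEF, and MEF highest. Its 3 probes moved alike on the Tet3 arrays, by -0.31 to -0.39 at 1 dpi and by -0.51 to -0.62 on the array labelled 7 dpi, but after quantile normalization the difference in neurons was -0.63, within 2-fold.

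Cox8b, the heart and skeletal muscle form of subunit 8 in mouse, had the largest differences of all members. It was at -6.48 in MEF, where it was not well above background, -5.12, -4.82, 0.40 and 0.77 on the Tet3 arrays and -4.54 in neurons. The arrays fell into a low set (MEF, 1 dpi, 3 dpi and neurons) and a high set (5 and 7 dpi). At 5 dpi the level of its 1 probe was at least 118-fold that of MEF, and the array labelled 7 dpi stood at least 153-fold above it. Within scan 2 the 5 dpi array was 37.2-fold above 3 dpi and the array labelled 7 dpi 39.7-fold above neurons. The smallest of the 4 scalings was normexp background correction, with 5.00 log2 units at 5 dpi and 5.37 at 7 dpi over MEF, and 4.42 for 5 dpi over 3 dpi. The smaller differences at 1 dpi (at least 2.57-fold), 3 dpi (at least 3.16-fold) and in neurons (at least 3.85-fold) were under 2-fold with normexp (0.69, 0.58 and 0.83 log2 units), and after quantile normalization so were those at 3 dpi (0.97) and in neurons (0.54). Cox8a, the widely expressed form, was at 5.07 in MEF, 5.2, 5.00, 5.07 and 4.93 on the Tet3 arrays and 5.02 in neurons, a range of 0.26, and its second probe was between 3.85 in neurons and 4.79 in MEF. Cox8c, a form known from testis, was well above background on no array.

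Ndufa4l2, a relative of the complex IV subunit Ndufa4 that is known as a target of hypoxia-inducible factor, was raised on each Tet3 array and highest at 5 dpi. It was at -3.19 in MEF, -0.12, -0.06, 1.62 and -1.76 on the Tet3 arrays and -3.41 in neurons. MEF and neurons lay close together at the low end with the scaling used. After quantile normalization or median centring Ndufa4l2 was at least 2-fold lower in neurons than in MEF. The level was 8.39-fold above MEF at 1 dpi, 8.74-fold at 3 dpi, 28.1-fold at 5 dpi and 2.7-fold on the array labelled 7 dpi. At 1 dpi the array was of the same scan as MEF. Within scan 2 the array labelled 7 dpi was 10.4-fold below 5 dpi and 3.14-fold above neurons, and the 5 dpi array was 3.22-fold above 3 dpi. These differences were past 2-fold under each of the 4 scalings except that of 7 dpi over MEF, which was 0.99 log2 units after median centring. Ndufa4 itself was at 4.18 in MEF, 4.39, 4.17, 4.59 and 4.58 on the Tet3 arrays and 4.21 in neurons.

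Cox6b2, the form of subunit 6b known from testis, was at -0.33 in MEF, 1.02, 0.38, 1.42 and 1.08 on the Tet3 arrays and 1.58 in neurons. MEF was the lowest of the 6. The differences from MEF were 2.55-fold at 1 dpi, 3.37-fold at 5 dpi, 2.65-fold on the array labelled 7 dpi and 3.75-fold in neurons, and at 3 dpi 0.71 log2 units. They were past 2-fold under each scaling but for 0.97 log2 units at 7 dpi after median centring. Cox6b1, the widely expressed form, was between 0.54 on the array labelled 7 dpi and 0.95 at 1 dpi. The promoters of these forms are shown because the restricted and the widely expressed member of a pair differed in how they varied.

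**Figure D5:**
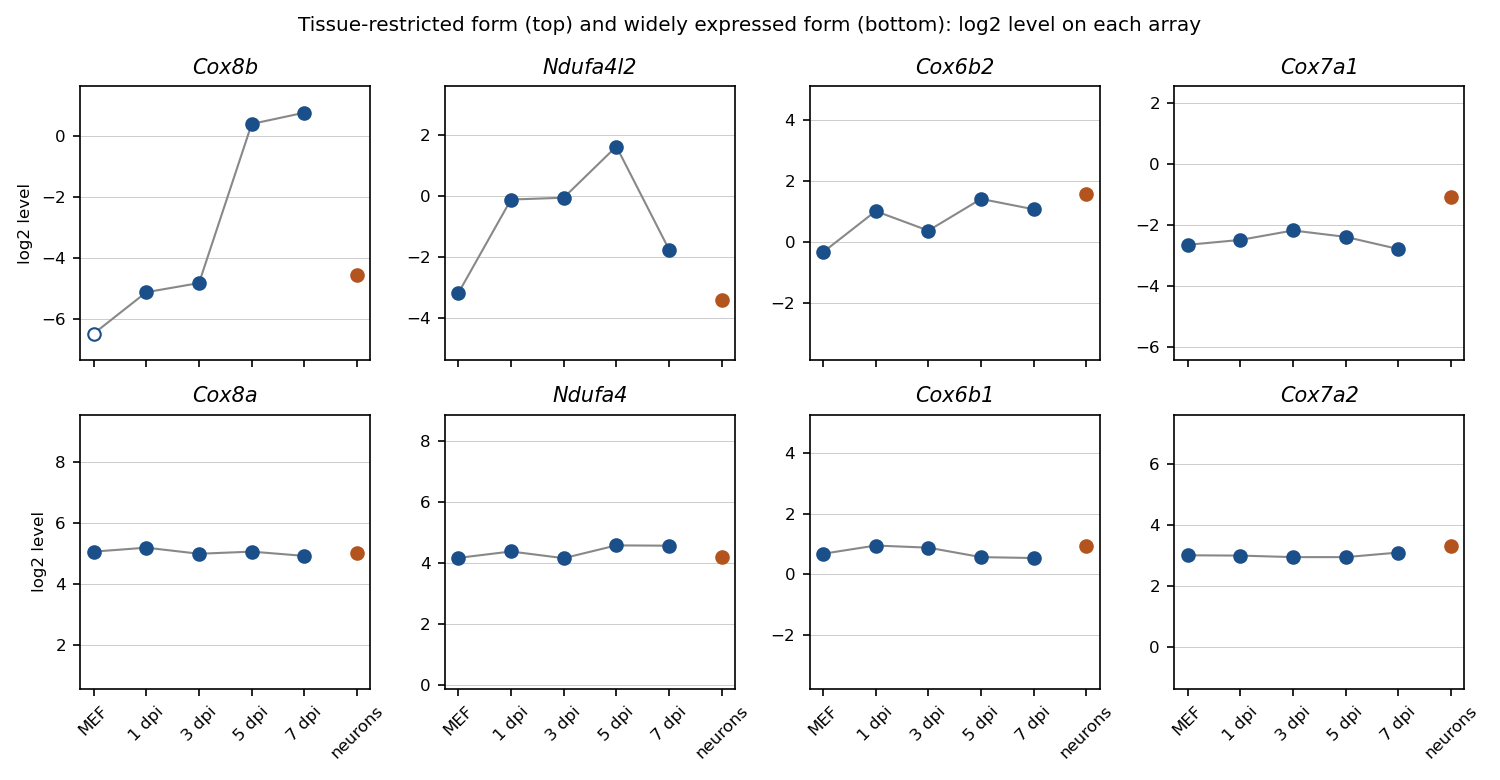
log2 level (y axis, each panel spanning 9 units) on each array (x axis) of 4 tissue-restricted forms of complex IV subunits in the upper row and of their widely expressed relatives in the lower row. The open circle marks an array not well above background, and neurons are shown apart. Cox8b, Ndufa4l2 and Cox6b2 differ between arrays while Cox8a, Ndufa4 and Cox6b1 stay level, and Cox7a1 differs on the neuron array.

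Each sequence below is the RefSeq (GRCm38.p6) window of 250 bases before and 50 bases after the annotated start, 5′ to 3′ on the strand of the gene, for Cox8b (chr7:140900397-140900696, minus strand), Cox8a (chr19:7217567-7217866, minus strand), Cox6b2 (chr7:4753045-4753344, minus strand) and Cox6b1 (chr7:30626065-30626364, minus strand). Capitals mark matches to the 5 motifs searched, namely TATAAA and CAGCTG in Cox8b and CCGGAAG, read here on the other strand, in Cox8a and Cox6b1.
Cox8b: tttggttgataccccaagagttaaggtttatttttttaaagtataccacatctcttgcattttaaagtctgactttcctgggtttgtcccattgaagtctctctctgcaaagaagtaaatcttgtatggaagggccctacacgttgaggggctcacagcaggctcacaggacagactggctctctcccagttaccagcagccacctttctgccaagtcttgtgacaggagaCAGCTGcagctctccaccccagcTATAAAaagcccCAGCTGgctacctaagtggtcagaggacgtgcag
Cox8a: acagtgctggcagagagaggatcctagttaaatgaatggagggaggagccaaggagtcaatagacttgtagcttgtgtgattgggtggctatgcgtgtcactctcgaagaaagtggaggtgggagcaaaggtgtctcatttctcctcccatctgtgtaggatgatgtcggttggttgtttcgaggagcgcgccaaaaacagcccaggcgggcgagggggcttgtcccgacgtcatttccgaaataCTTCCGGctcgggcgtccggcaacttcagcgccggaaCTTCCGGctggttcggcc
Cox6b2: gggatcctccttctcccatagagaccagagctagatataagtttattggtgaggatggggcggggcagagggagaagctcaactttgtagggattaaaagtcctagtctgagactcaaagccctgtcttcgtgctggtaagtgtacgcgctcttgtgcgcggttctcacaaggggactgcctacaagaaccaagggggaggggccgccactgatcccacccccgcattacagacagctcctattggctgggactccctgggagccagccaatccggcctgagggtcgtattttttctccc
Cox6b1: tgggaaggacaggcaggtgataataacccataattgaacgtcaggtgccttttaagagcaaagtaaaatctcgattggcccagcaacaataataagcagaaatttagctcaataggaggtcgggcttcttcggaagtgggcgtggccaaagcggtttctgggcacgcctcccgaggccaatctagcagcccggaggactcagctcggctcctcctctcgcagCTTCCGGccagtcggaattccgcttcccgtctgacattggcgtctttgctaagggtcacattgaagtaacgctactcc
The Cox8b window held 1 TATAAA and 2 CAGCTG and no match to the other motifs, and the Cox8a window 2 matches to CCGGAAG. In Cox8b the TATAAA began at base 5, counting the annotated start as 1, and the CAGCTG matches at -19 and 17. The TATAAA thus lay after the annotated start and not before it. The Cox6b2 window held none of the 5 and the Cox6b1 window 1 CCGGAAG.

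The same motifs were counted on both strands in the windows of the 77 members with an entry, beside the 27025 genes of the promoter table. The pattern bound by NRF1, searched as GCGC and TGCGC with any 1 base between them, was in 24.7% of the members' windows and in 5.19% of all genes. CCGGAAG, the core bound by ETS factors such as GABP, was in 24.7% and 9.93%, and AAGATGGC, a YY1-type pattern, in 14.3% and 3.19%. These 3 patterns are known from genes of the respiratory chain. TATAAA was in 10.4% of the members and 15.7% of all genes, and CAGCTG, an E-box of the kind bound by myogenic factors, in 7.79% and 18.3%. Of the 8 restricted forms 4 had an entry (Cox6b2, Cox7a1, Cox7b2 and Cox8b), and 0 of these held the NRF1 pattern, CCGGAAG or AAGATGGC while 2 (Cox7b2 and Cox8b) held TATAAA. The widely expressed Cox5a, Cox5b, Cox7a2, Cox7a2l, Cox7b, Cox7c and Ndufa4 also held none of those 3 patterns. Their absence therefore does not set the restricted forms apart, and the 2 pairs printed above do not stand for all pairs. All these matches are of letters in the reference genome and do not show binding in these cells.

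The other restricted forms of complex IV were within 2-fold of MEF on the Tet3 arrays where they had a value. Cox7a1, the heart and muscle form of subunit 7a, was at -2.64 in MEF, -2.48, -2.17, -2.38 and -2.78 on the Tet3 arrays and -1.08 in neurons. It was 2.95-fold higher in neurons than in MEF and 3.26-fold lower on the array labelled 7 dpi than in neurons, with the Tet3 arrays close to MEF. After median centring the first of these was 0.76 log2 units. Cox6a2, the heart and muscle form of subunit 6a, was at -2.4 in MEF, -1.90, -2.39, -2.12 and -1.48 on the Tet3 arrays and -3.42 in neurons. It was highest on the array labelled 7 dpi, 3.83-fold above neurons and 0.92 log2 units above MEF, and in neurons 2.03-fold below MEF (0.78 log2 units lower with normexp). Cox7b2, a dim relative of Cox7b, stood at least 2.66-fold above MEF on the neuron array, with an array error of 1.45 log2 units and a call under 1 of 4 scalings. Cox4i2, the form of subunit 4 known from lung, lay between 1.15 in neurons and 1.61 at 5 dpi.

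Complex V, the ATP synthase, had 17 members, each within 2-fold of MEF on every array, except that after median centring 9 were at least 2-fold lower in neurons. Atp5b, the catalytic beta subunit, was at 5.26 in MEF, 5.35, 5.28, 5.39 and 5.25 on the Tet3 arrays and 4.91 in neurons. Atp5a1, the alpha subunit, was at 4.24 in MEF, 4.01, 3.83, 3.79 and 4.16 on the Tet3 arrays and 3.83 in neurons, and Atp5c1, the gamma subunit, ranged over 0.32. Atp5mpl, a small membrane protein of the complex, was the flattest of all members, with a range of 0.17. The 3 genes that encode the same c-ring subunit differed from one another. Atp5g1 was at 3.47 in MEF, 3.88, 4.04, 3.64 and 3.6 on the Tet3 arrays and 3.45 in neurons, with its high point at 3 dpi. Atp5g2 was at 4.37 in MEF, 4.14, 4.08, 4.01 and 3.94 on the Tet3 arrays and 3.49 in neurons, with both of its probes highest in MEF and lowest in neurons. Atp5g3 lay between 4.37 in neurons and 4.78 at 1 dpi. In neurons 15 of the 17 members were below MEF with the scaling used, and after quantile normalization 14 were above it. Atp5l, another subunit of the membrane part, was 0.63 log2 units lower in neurons than in MEF.

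Genes that serve the complexes without being members were counted in the same way, beside the 5.31%, 16.2%, 17.9% and 16.9% of all genes that were at least 2-fold higher than MEF at 1, 3, 5 and 7 dpi and the 46.3% past the threshold in neurons. Of 33 other assembly factors on the arrays 2 were at least 2-fold higher than MEF at 3 dpi (Cox10 and Cox18, with differences of 1.22 and 1.07 log2 units), 1 at 5 dpi (Tmem70) and 0 at 1 or 7 dpi. Cox10 takes part in making heme A. Cox17, a copper chaperone for complex IV, was 1.15 log2 units lower in neurons than in MEF with the scaling used, a value near the threshold. Of the mitochondrial ribosomal proteins, which make the subunits encoded in mitochondrial DNA, 0 of 77 with a value were past 2-fold at 1 dpi, 1 of 77 at 3 dpi (Mrpl17), 0 of 78 at 5 dpi and 0 of 77 on the array labelled 7 dpi. Mrps6 was 2.13 log2 units higher in neurons than in MEF, where 4 others were lower. Of 25 genes of the citric acid cycle and of pyruvate dehydrogenase, 1, 1, 2 and 1 were higher at 1, 3, 5 and 7 dpi and 0 lower. Pcx, pyruvate carboxylase, was at -0.11 in MEF, 1.22, -0.03, 1.65 and 1.83 on the Tet3 arrays and 1.91 in neurons. Of 28 genes of iron-sulfur cluster and coenzyme Q supply, 0, 1, 0 and 0 were higher and 0, 0, 1 and 2 lower at the same times.

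Of 20 regulators of mitochondrial gene expression 0 were at least 2-fold from MEF at 1 dpi, 1 was lower at 3 dpi, 1 higher at 5 dpi, 2 higher at 7 dpi, and in neurons 2 were higher and 2 lower. The shares called either way among all genes were given above. Ppargc1a, the coactivator PGC-1alpha, was at -4.62 in MEF, -3.90, -3.91, -1.69 and -1.43 on the Tet3 arrays and 1.1 in neurons. It was 7.61-fold above MEF at 5 dpi, 9.12-fold on the array labelled 7 dpi and 52.4-fold in neurons, and 4.66-fold above 3 dpi at 5 dpi, within scan 2. Ppargc1b, its relative, was at -5.84 at 3 dpi, against -3.61 in MEF. Esrrg, a nuclear receptor, was 2.86-fold higher than MEF at 7 dpi and 3.86-fold in neurons. Pprc1, another coactivator, and Yy1, a transcription factor, were 2.85-fold and 2.09-fold lower in neurons. These folds are for the scaling used, and that of Yy1 is near the threshold. Nrf1, Gabpa and Esrra, transcription factors of respiratory genes, ranged over 0.89, 0.57 and 0.95, and Tfam, the packaging factor of mitochondrial DNA, over 0.17. Of the carriers and channels 11 had a value at 1 dpi and 12 at 3, 5 and 7 dpi. At these times 0, 1, 1 and 1 were at least 2-fold higher than MEF and 2 lower each time. Among all genes 5.9%, 9.75%, 8.19% and 6.78% were lower, and the shares higher are given above. The higher one at 3 dpi was Slc25a13, at -0.76, against -2.36 in MEF. The 2 lower ones were the uncoupling protein genes Ucp2 and Ucp3 on each Tet3 array. Ucp2, which macrophages are known to express, was at 0.22 in MEF, -1.20, -1.35, -1.18 and -1.24 on the Tet3 arrays and -3.31 in neurons, beside the macrophage marker sums given above, and the part of those cells in this was not tested.

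Genes of glycolysis and of the hypoxia response stood beside Ndufa4l2. Of 31 such genes 2 were at least 2-fold higher than MEF at 1 dpi, 9 at 3 dpi and 11 at 5 dpi (29% and 35.5%, beside the 16.2% and 17.9% of all genes), and on the array labelled 7 dpi 1 lay above and 1 below MEF. From 5 to 7 dpi, within scan 2, 9 of the 31 (29%) were at least 2-fold lower at 7 dpi and 0 higher, beside 10.2% of all genes in either direction (5.72% higher and 4.53% lower) and 1 of 92 members, Ndufa4l2. Among the brighter genes 4.73% were past the threshold there (2.28% higher and 2.45% lower) and 0 of 81 members. Under the other scalings 5 to 11 were higher at 3 dpi, 4 to 10 at 5 dpi, and 8 to 11 lower at 7 dpi than at 5 dpi. Egln3, a prolyl hydroxylase induced in hypoxia, was at -4.92 in MEF, -2.55, -0.90, 0.57 and -2.06 on the Tet3 arrays and -0.86 in neurons. Slc2a1, the glucose transporter GLUT1, was at 3.07 in MEF, 3.46, 4.40, 4.82 and 3.07 on the Tet3 arrays and 3.48 in neurons, and Slc16a3, a lactate exporter, at 2.03, 1.73, 3.06, 3.74, 1.23 and -1.72 in the same order. These 3 genes were highest among the Tet3 arrays at 5 dpi, as Ndufa4l2 was. The list as a whole did not share this peak. Pgk1 and Pkm, enzymes of glycolysis, were highest at 3 dpi (5.07 and 4.22, against 4.87 and 3.93 at 5 dpi). Adm was lower at 5 dpi (1.55) than on the other Tet3 arrays (1.78, 1.75 and 2.21). In neurons the 3 genes and Ndufa4l2 differed. There Egln3 was 16.7-fold above MEF, while Ndufa4l2 was within 2-fold of it with the scaling used.

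Markers of muscle stood beside Cox8b, a muscle form. Of the muscle markers with a value 16 of 31 were at least 2-fold higher than MEF at 1 dpi, 18 of 31 at 3 dpi, 17 of 31 at 5 dpi and 25 of 32 on the array labelled 7 dpi, and 0 lower, beside 5.31%, 16.2%, 17.9% and 16.9% of all genes higher, and with normexp 10, 9, 14 and 23 were higher. In neurons 17 of 30 muscle markers were at least 2-fold higher than in MEF and 4 lower, beside 30.1% and 16.1% of all genes. Their summed linear level was 5.96 in MEF, 17.7, 20.12, 25.08 and 29.1 on the Tet3 arrays and 8.77 in neurons. A linear sum weighs the brightest probe most. This was Acta1, skeletal actin, at a log2 level of 1.63 in MEF, 3.50 at 1 dpi and 3.88 at 3 dpi, so the sum mostly follows that gene there. Tnnt2, a troponin, was at -4.80 in MEF, -1.98, -1.18, 0.28 and 1.56 on the Tet3 arrays and not well above background in neurons. Between 3 and 5 dpi, the step at which Cox8b differed most, 7 of 31 muscle markers were at least 2-fold higher at 5 dpi and 2 lower, beside 8.09% and 4.55% of all genes. Actc1, cardiac actin, was at 1.35 at 5 dpi, against -1.35 at 3 dpi, and Tnnt1, a troponin of slow muscle, at 1.9, against -0.55. The lower ones were the myosins Myh1, at -6.37 at 5 dpi, against -4.35 at 3 dpi, and Myh8, at -5.41, against -3.64. Acta1 was at 3.88 at 3 dpi, 3.66 at 5 dpi and 2.45 at 7 dpi. Ckmt2, the muscle mitochondrial creatine kinase, was well above background on the array labelled 7 dpi and on no other. Cox8b is also known from brown fat. Of the brown fat markers with a value 5 of 9 were at least 2-fold higher at 5 dpi than at 3 dpi (55.6%) and 1 lower. Against MEF 4 of 9 were higher at 5 dpi and 1 lower, and at 7 dpi 4 were higher and 2 lower. Dio2, which activates thyroid hormone, was at 0.28 at 5 dpi, against -4.62 at 3 dpi, and Fabp4, a fatty acid carrier of fat cells, at 2.11, against -0.13. Prdm16 went the other way, at -3.28 in MEF, -2.82 at 3 dpi, -4.55 at 5 dpi and -5.18 at 7 dpi. By 7 dpi Fabp4 was at 0.12, against 1.25 in MEF. In neurons 4 of 8 brown fat markers with a value were higher than in MEF and 2 lower. Ucp1 and Lep were not well above background on any array, Cidea was at -5.96 in MEF, -5.87, -6.32, -3.07 and -2.50 on the Tet3 arrays and -1.40 in neurons, and the summed level of the 12 markers was 5.15 in MEF, 3.18, 2.52, 8.1 and 5.17 on the Tet3 arrays and 5.73 in neurons. The part of muscle or fat cells in the Cox8b signal was not tested.

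The comparisons between neighbouring times within scan 2 held few members. At 5 dpi 3 of 93 members were at least 2-fold higher than at 3 dpi (Cox8b, Ndufa4l2 and Cox6b2) and 0 lower, beside 12.6% of all genes in either direction (8.09% higher and 4.55% lower). Of the 81 brighter members 1 was higher (Cox6b2) and 0 lower, beside 7.81% of the brighter genes (4.59% higher and 3.22% lower). The call for Cox6b2 was 0.96 log2 units with normexp and 0.94 after median centring, within 2-fold. Between 7 and 5 dpi the next differences after Ndufa4l2 were 0.81 log2 units for Ndufaf6 and Ndufaf8 and 0.64 for Cox6a2. At 5 dpi Uqcrc1 and Ndufab1 were 0.74 and 0.67 log2 units lower than at 3 dpi. Against neurons, the array labelled 7 dpi was past 2-fold for Cox8b, Cox6a2, Ndufa4l2, Ndufaf6 and Ndufab1, which were higher at 7 dpi, and for Cox7a1, which was lower. Ndufab1 was 2.23-fold higher there. The medians of the complexes in this comparison lay between -0.01 for the assembly factors and 0.19 for complex V, and after quantile normalization the median of all members was -0.22 where it was 0.14 with the scaling used.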

How the data were processed

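RNA of 6 samples was measured on 1 array each. The submitters' processing notes name Agilent Feature Extraction 11.0.1.1 as the software that read the spots. In the deposited scanner files the processed intensity of a spot has its background removed, per the file headers. The authors' deposited series table holds log2 values with the 75th percentile of each array at 0. These were used, with the scanner files giving background flags, error and alternatives (correlation of table and scanner values at least 0.99999). No spot of a member was saturated, 72.9% to 86.1% of probes were well above background, and the mean SD of replicate spots was 0.0731 to 0.151. Precision is limited by the number of arrays.

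Of 39429 probes 27234 (69.1%) were named through the RefSeq table of GRCm38.p6, and 12195 were not. The brightest probe stood for a gene. A dim array entered a difference as the higher of the probe's own level and the lowest level well above background. Counts past 2-fold were made for 8 comparisons, each with the same over all genes. No group had a replicate, so no test was made. A direction shared by probes is the firmer one where a gene has several. Of 23 members with several bright probes, all probes of a member gave the same direction for 14 to 20 members, depending on the comparison. The calling was tested on simulated data.

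The values of 1 member are not reported here. The members and lists were chosen with earlier results of these data known. Genes are named by rule: paralog families, central subunits, members past 2-fold, the 3 furthest each way in a comparison, the largest and smallest range in a complex, and up to 4 members of each list past 2-fold. Some genes of a list that went another way were added. Kinds of list were complex assembly, biogenesis regulators, citric acid cycle, carriers, iron-sulfur and coenzyme Q, glycolysis and hypoxia, mitochondrial ribosome, cytosolic ribosome, and markers of muscle, brown fat, neurons, fibroblasts, macrophages and glia. Alternatives were the scanner signal, normexp (offset 50, on median signals, mean signals not being used) and quantile normalization (limma 3.58.1), median centring, the mean over probes or members, stricter or no background filter, a 1.5-fold threshold and subsets of genes. The probe chosen without the array labelled 7 dpi was added after the data were seen. Work was done in Python 3.11.15, pandas 2.3.3, NumPy 2.4.6 and R 4.3.3.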

Additional observations from a re-analysis of the deposited data

How the results depend on the processing

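Counts of members past 2-fold are small, so single members move them. With a 1.5-fold threshold 6 members were higher and 1 lower at 1 dpi than in MEF, 9 higher and 3 lower at 3 dpi, 3 lower at 5 dpi, and at 7 dpi 7 above and 1 below MEF. At that threshold 8 were lower in neurons than in MEF, 11 higher and 4 lower at 7 dpi than in neurons, 2 lower at 5 than at 3 dpi, and 3 higher at 7 than at 5 dpi. Within 1.5-fold of MEF were 92.4%, 87.1%, 91.3% and 91.3% of members at 1, 3, 5 and 7 dpi, beside 75.6%, 52.9%, 54.1% and 59.2% of all genes. These shares were 81.7% and 34.7% in neurons over MEF, and 83.9% and 48.5% in 7 dpi over neurons. They were 94.6% and 72.6% in 5 over 3 dpi, and 95.7% and 77% in 7 over 5 dpi. Without assembly factors and restricted forms, which leaves fewer genes, 0 were higher at 1, 3, 5 or 7 dpi or in neurons than in MEF and 0 lower at 5 dpi. There 1 was higher and 0 lower at 7 dpi than in neurons, 0 higher at 5 than at 3 dpi and 0 lower at 7 than at 5 dpi. Among the brighter genes 1, 0, 1 and 1 were higher at 1, 3, 5 and 7 dpi than in MEF and 0 lower at 5 dpi. In that subset 1 was higher and 1 lower in neurons than in MEF, 0 higher and 0 lower at 7 dpi than in neurons, 1 higher at 5 than at 3 dpi and 0 lower at 7 than at 5 dpi. The members' median less that of all genes was 0.23 there in neurons over MEF and -0.19 in 7 dpi over neurons, against -0.40 and 0.17. With normexp 1 was higher at 3 dpi, 0 lower at 5 dpi and 1 lower in neurons than in MEF. The same counts among all genes were 1276 of 18255, 1218 of 18381 and 2740 of 18766. After quantile normalization 1 was higher at 3 dpi, 0 lower at 5 dpi and 2 higher in neurons, and the members' median less that of all genes was -0.04 at 5 dpi and 0.34 in neurons over MEF, and -0.27 in 7 dpi over neurons. The counts among all genes were 1547 of 18261 higher at 3 dpi, 1900 of 18380 lower at 5 dpi and 3270 of 18765 higher in neurons. After median centring 1 was lower at 3 dpi and 3 at 5 dpi, 2 were higher and 1 lower at 7 dpi, 2 higher and 41 lower in neurons than in MEF, and 10 higher at 7 dpi than in neurons. Among all genes 2596 of 18265 were then lower at 3 dpi and 2641 of 18384 at 5 dpi. Of 17636 genes 1556 were higher and 2137 lower at 7 dpi, and of 18767 genes 2952 were higher and 6845 lower in neurons. In 7 dpi over neurons 4082 of 18718 genes were higher. With no filter on dim probes 2 were lower at 7 dpi than in neurons and 1 higher at 7 than at 5 dpi. The other 211 values of counts and medians kept within 1.5 times or the array error. For medians this allowance is wide, since the array error is near their own size and a kept median can change sign. At 7 dpi the members' median was below that of all genes with the scaling used (-0.01 and 0.16). After quantile normalization it was above (0.07 and 0.04). Of the recomputed differences of single members 281 stayed past the threshold, 28 no longer did and 0 changed sign. Much of the 281 was fixed in advance. The subsets of genes and the 1.5-fold threshold keep the difference itself, so they could not lose a call. Calls that a setting left without a value were not counted as lost. The scanner signal and the probe chosen without the array labelled 7 dpi, added after the data were seen, gave the counts of the deposited table. Causes of these shifts were not tested, beyond those that leave out genes or lower a threshold. No paired analysis was possible because each group had 1 array. Values near background, such as Cox8b in MEF, are limited by signal over background, and folds against them are bounds.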
